A study of Mus musculus with 24 samples.

Results

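The endothelial cells that line brain capillaries form the blood-brain barrier. Tight junctions seal the clefts between them, transporters and efflux pumps in their membranes decide what crosses, and few vesicles pass through the cells. After traumatic brain injury (TBI) this barrier leaks, and vessel cells change their adhesion and coagulation genes. The genes described here are 10 of the 36333 listed, namely Cldn5, Ocln, Tjp1, Slc2a1, Mfsd2a, Abcb1a, Pecam1, Cdh5, Plvap and Vwf. They were taken by name as genes of the endothelium and its barrier. All 10 had a mean of at least 0.5 TPM (transcript abundance per gene length, with the same total in every library) over the libraries, as had 17267 genes in all, so each was tested.

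RNA came from brain tissue of 24 mice, labelled as male C57BL6N aged 12 to 16 weeks, with 1 library per mouse. The methods name C57BL/6JRj mice instead, so the substrain is not settled here. The study used both sexes, and its RNA sequencing was of male mice, as labelled. TBI by controlled cortical impact (CCI) was followed for 5 days in 4 groups of 5 mice, which received vehicle, PLX3397, Anakinra or PLX3397+Anakinra, and 4 sham mice made the fifth group. PLX3397, an inhibitor of the microglial survival receptor CSF1R, was mixed into chow at 290 mg/kg and offered from 90 min after CCI on. Anakinra, an antagonist of the interleukin-1 receptor IL1R1, was injected under the skin at 100 mg/kg at 5 min, 24 h, 48 h and 72 h. Sham mice had skin incision without craniotomy or impact, so the comparison with sham holds the opening of the skull together with the impact. The tissue is labelled cortex, whereas the methods describe an upper quadrant that also held striatum, hippocampus and thalamus. Animal numbers carry the letter B in the vehicle group and in no other, and whatever that letter stands for cannot be told apart from vehicle.

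TPM are relative to the whole library, and read depth per library is unknown. Markers of other cells moved between the groups. Over 12 neuronal markers the summed level lay between 8766 and 9145 TPM in sham and between 5279 and 6271 TPM in vehicle. The 13 markers of microglia and macrophages summed to 685 to 720 TPM in sham, 4417 to 6344 TPM in vehicle, 2121 to 3414 TPM with PLX3397 and 1765 to 2303 TPM with PLX3397+Anakinra. All 10 astrocyte markers were called higher in vehicle than in sham (median log2 fold change 0.68, Gfap 4.06), and their sum went from 1742 to 1949 TPM in sham to 4075 to 5289 TPM in vehicle. Of 10 oligodendrocyte markers 7 were called higher, with sums of 5506 to 5995 TPM in sham and 7074 to 7776 TPM in vehicle. Glia express several of the 10 genes too, and the part of these cells in their values was not tested. The vehicle mouse J17B had the lowest value of its group for 8 of the 10 genes. It also had the group's highest neuronal sum (6271 TPM), its lowest microglial sum (4417 TPM) and its lowest sum of 12 markers of meningeal and perivascular fibroblasts (202 TPM, against 236 to 845 TPM in the other vehicle mice). Counts that rest on vehicle are therefore also given without this mouse. As J17B was picked by these same values, leaving it out raises the vehicle mean of those 8 genes by construction. Calls or separations gained without it are no independent support.

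All 10 genes lie on GRCm38 autosomes. Cldn5 (claudin-5, the main claudin of brain endothelium) is on chr16:18776847-18778262, Ocln (occludin) on chr13:100496504-100552718 and Tjp1 (the scaffold ZO-1 that ties junction proteins to actin) on chr7:65296165-65527850. The glucose transporter gene Slc2a1 lies on chr4:119108745-119137330, the lipid transporter gene Mfsd2a on chr4:122946850-122961194 and the gene of the efflux pump P-glycoprotein, Abcb1a, on chr5:8567091-8748575. The adhesion genes Pecam1 and Cdh5 (VE-cadherin) are at chr11:106654213-106715281 and chr8:104101613-104144504. Plvap, which builds the diaphragms of fenestrae and caveolae, is at chr8:71497753-71511806, and Vwf, the von Willebrand factor of endothelial storage granules and platelets, at chr6:125552948-125686679. In the GENCODE transcripts, 9.03% of the 100-base words of Abcb1a also occur in its neighbour and paralog Abcb1b, and the reads behind both genes may have been split between them. Of Abcb1a's exonic bases, 10.1% lie under Gm42686 on the other strand, and 2.99% of those of Slc2a1 under the antisense gene Gm12868. Whether counting used strand is not given in the sources used here, so these stretches cannot be assigned. Of the other 9 genes none shared more than 0.125% of its 100-base words with another gene.

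RefSeq promoter windows of GRCm38.p6 were matched for 6 of the 10 genes (Cldn5, Ocln, Tjp1, Slc2a1, Mfsd2a and Abcb1a), and the 250 bases before the start were read from them. The windows of 3 genes are shown, of Cldn5 and Tjp1 because both were higher than sham in all 4 TBI groups, and of Slc2a1 because it was the most abundant of the 10 genes and passed the test against sham in a single group. Capitals mark CACCC on either strand (GGGTG where it lies on the other), the box that Krüppel-like factors of endothelium can bind. Each of the 3 windows holds 2 such boxes. Of all 32851 RefSeq windows of this length, 52.0% hold at least 1, and the share with 2 was not counted. Among the windows not shown, that of Mfsd2a holds 0, that of Abcb1a 2 and those of Ocln 4 and 0. ETS core (GGAA), hypoxia response (ACGTG), TCF/LEF (CTTTGA) and SOX (ACAAT) motifs were searched too. The windows of Cldn5, Tjp1 and Slc2a1 hold 0, 3 and 0 ETS cores and 0, 0 and 1 hypoxia motifs. None of these windows holds a TCF/LEF or SOX motif. Of all windows, 93.4%, 16.6%, 13.8% and 27.7% hold at least 1 of the respective motif. GC content was 59.6%, 63.2% and 66.4% in the order Cldn5, Tjp1, Slc2a1. The Cldn5 window is chr16:18776597-18776846 on the plus strand, that of Tjp1 is chr7:65371245-65371494 on the minus strand and belongs to a start inside the annotated span of the gene, and that of Slc2a1 is chr4:119108495-119108744 on the plus strand.
Cldn5: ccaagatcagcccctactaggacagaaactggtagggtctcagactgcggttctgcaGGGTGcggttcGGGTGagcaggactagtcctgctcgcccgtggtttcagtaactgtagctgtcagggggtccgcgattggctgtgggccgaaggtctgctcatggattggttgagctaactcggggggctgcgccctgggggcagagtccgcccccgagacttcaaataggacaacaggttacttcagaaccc
Tjp1: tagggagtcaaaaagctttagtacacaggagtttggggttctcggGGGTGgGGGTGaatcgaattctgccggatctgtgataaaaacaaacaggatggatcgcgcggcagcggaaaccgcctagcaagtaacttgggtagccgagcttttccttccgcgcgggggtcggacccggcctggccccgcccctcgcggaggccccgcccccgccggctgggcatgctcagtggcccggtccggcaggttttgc
Slc2a1: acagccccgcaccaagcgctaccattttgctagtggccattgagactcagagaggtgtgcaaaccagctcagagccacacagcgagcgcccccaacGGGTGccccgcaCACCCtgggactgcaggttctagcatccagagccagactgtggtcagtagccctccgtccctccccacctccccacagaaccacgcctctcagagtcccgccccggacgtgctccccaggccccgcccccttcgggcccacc

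In sham brain, group means ran from 145 TPM for Slc2a1 to 6.13 TPM for Ocln. Cldn5 (66.5 TPM) and Tjp1 (52 TPM) came next to Slc2a1, followed by Abcb1a (27.8 TPM) and Mfsd2a (27.2 TPM), whose values overlapped. Pecam1 (17.4 TPM) stood above Cdh5 (12.6 TPM), Vwf (12 TPM) and Plvap (11.9 TPM), which overlapped with each other. In vehicle mice Vwf (15.2 to 24 TPM) and Cdh5 (15.2 to 23 TPM) still overlapped with each other, while Plvap had a mean of 12.2 TPM and a highest value of 15.5 TPM. Every gene was detected in every library.

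**Figure D1:**
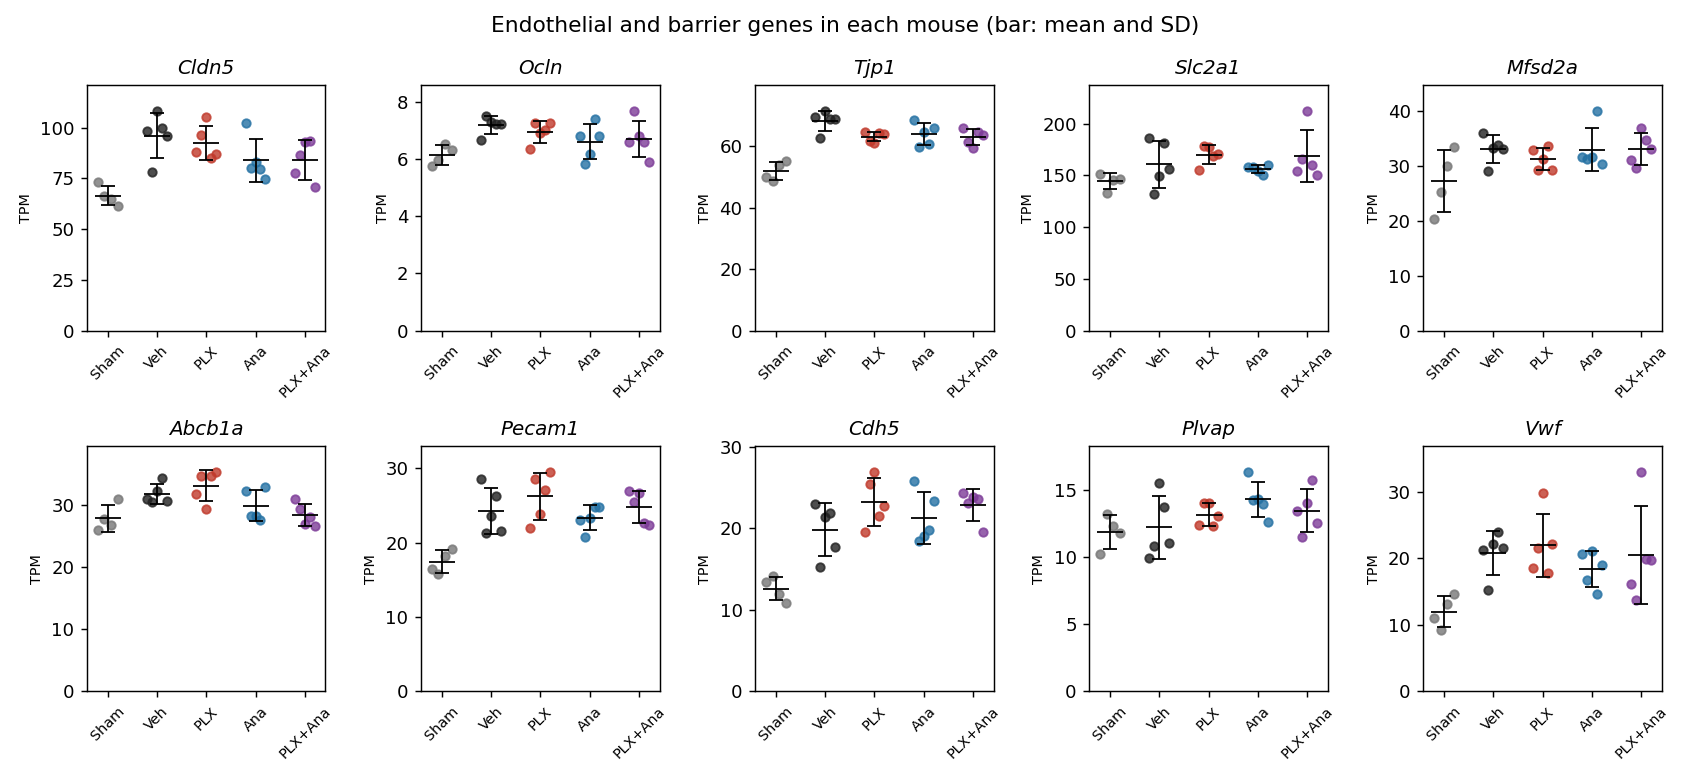
TPM (y axis, from 0) of the 10 genes in each mouse of the 5 groups (x axis), with the group mean and SD as bars. Cdh5 is at or above 15.2 TPM in every mouse with TBI and at or below 14.1 TPM in sham, whereas Plvap of vehicle mice lies across the range of sham.

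The first question was whether barrier and endothelial genes were altered 5 days after TBI without drug. Of the 10 genes, 8 were higher in vehicle than in sham, where a call is a Benjamini-Hochberg adjusted p below 0.05 in limma over all 17267 genes, and none was lower. Of all genes tested, 26.6% were called higher, 27.7% lower and 54.3% in either direction. The median log2 fold change was 0.34 over the 10 genes and -0.01 over all genes, and all 10 were above 0. In 6 of the 10 every vehicle mouse was above every sham mouse, as in 21.7% of all genes. Without the vehicle mouse J17B the count was 9 (Slc2a1 joined, at 0.21, adjusted p = 0.03), and 9496 of all genes were called in either direction, against 9378 with it. Without the sham mouse J07 the count of the 10 was 5, since Ocln, Mfsd2a and Abcb1a no longer passed. None of the 10 reached a ratio of group means above 2. Replicates are single mice, and the tissue was sequenced in bulk, so a change in the number of endothelial cells and a change in RNA per cell cannot be told apart.

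Cldn5, Tjp1 and Ocln, the tight junction genes among the 10, all rose, and Cldn5 had the highest fold change of the 3. It measured 61.6, 64.9, 66.3 and 73.1 TPM in the sham mice and 77.9, 95.9, 98.1, 100 and 108 TPM in the vehicle mice. All vehicle values were above all sham values, and the log2 fold change was 0.52 ± 0.09 (SE, adjusted p = 5.06e-05). Tjp1 went from 48.8, 50.1, 53.9 and 55 TPM in sham to 62.6, 68.7, 68.9, 69.5 and 71.3 TPM in vehicle. Its groups did not overlap either, and its small spread gave the smallest p of the 10 genes (0.39 ± 0.05, adjusted p = 1.76e-07). Ocln, a tetraspan protein of the same junctions, was the least abundant of the 10 and rose from 6.13 ± 0.353 TPM (SD, n = 4) to 7.17 ± 0.315 TPM (SD, n = 5), by 0.20 ± 0.07 (SE, adjusted p = 0.0216). The Ocln call was lost without sham mouse J07 (adjusted p = 0.0702) or J08 (0.0534).

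Of the 3 transporter genes, 2 rose. Mfsd2a, which carries omega-3 lipids inward and holds down transcytosis, rose by 0.29 ± 0.10 (adjusted p = 0.0183). Its sham values of 20.3, 25.2, 29.9 and 33.4 TPM spread over the widest relative range of the sham group. Those of 29.9 and 33.4 TPM lay within the 29 to 36 TPM of the vehicle mice. Without the sham mouse at 20.3 TPM the change was 0.16 (adjusted p = 0.14). The Mfsd2a call was also lost without sham mouse J08 (adjusted p = 0.0553) and when the compared groups alone were fitted (0.0531). Abcb1a rose by 0.18 ± 0.07 (adjusted p = 0.0203), from 27.8 ± 2.18 TPM to 31.7 ± 1.66 TPM (SD), and the call was lost without sham mouse J07 (adjusted p = 0.0758) or J15 (0.0585) or vehicle mouse J19B (0.0612). Its paralog Abcb1b, which shares sequence with it, rose by 1.01 from 2.65 TPM to 6.34 TPM. Slc2a1 had 133, 146, 147 and 151 TPM in sham and 132, 149, 156, 181 and 186 TPM in vehicle. The groups overlapped, and the difference of 0.15 ± 0.09 (95% interval -0.03 to 0.32) did not pass (adjusted p = 0.16).

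The adhesion molecules Cdh5 and Pecam1 both rose. Cdh5, the cadherin of endothelial adherens junctions, measured 10.9, 12, 13.4 and 14.1 TPM in sham and 15.2, 17.7, 21.4, 21.9 and 23 TPM in vehicle. The groups did not overlap, at 0.61 ± 0.11 (SE, adjusted p = 7.4e-05). Pecam1 (CD31), found on endothelium and also on leukocytes and platelets, rose from 17.4 ± 1.54 TPM to 24.3 ± 3.16 TPM (SD) without overlap, by 0.45 ± 0.09 (SE, adjusted p = 0.000174). Leukocyte markers rose in the same comparison, from a summed 19.5 to 21.8 TPM over 13 markers to 36.2 to 70.4 TPM, and their part in the Pecam1 value was not tested.

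Vwf showed the largest change of the 10 genes. Sham mice had 9.21, 11, 13.2 and 14.6 TPM and vehicle mice 15.2, 21.3, 21.6, 22.1 and 24 TPM. The lowest vehicle mouse, J17B, was just above the highest sham mouse, and the log2 fold change was 0.75 ± 0.18 (SE, adjusted p = 0.00123). Platelets carry von Willebrand factor too. Of the 7 platelet and megakaryocyte markers 4 were expressed highly enough to be tested, and 1, the chemokine Ppbp, was called higher (0.72, from 0.159 to 0.966 TPM), while the summed level of 21 to 32.3 TPM in sham overlapped with 24.7 to 32.1 TPM in vehicle.

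Plvap, a gene that barrier-type endothelium keeps low and fenestrated vessels express, had the smallest difference of the 10. It had 10.2, 11.8, 12.3 and 13.2 TPM in sham and 9.93, 10.8, 11, 13.7 and 15.5 TPM in vehicle. Values overlapped throughout, and the difference was 0.02 ± 0.10 (95% interval -0.19 to 0.24, adjusted p = 0.871). The choroid plexus, whose vessels are fenestrated, was present in these samples, with 11 markers summing to 2877 to 4120 TPM in sham and 2686 to 3872 TPM in vehicle.

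**Figure D2:**
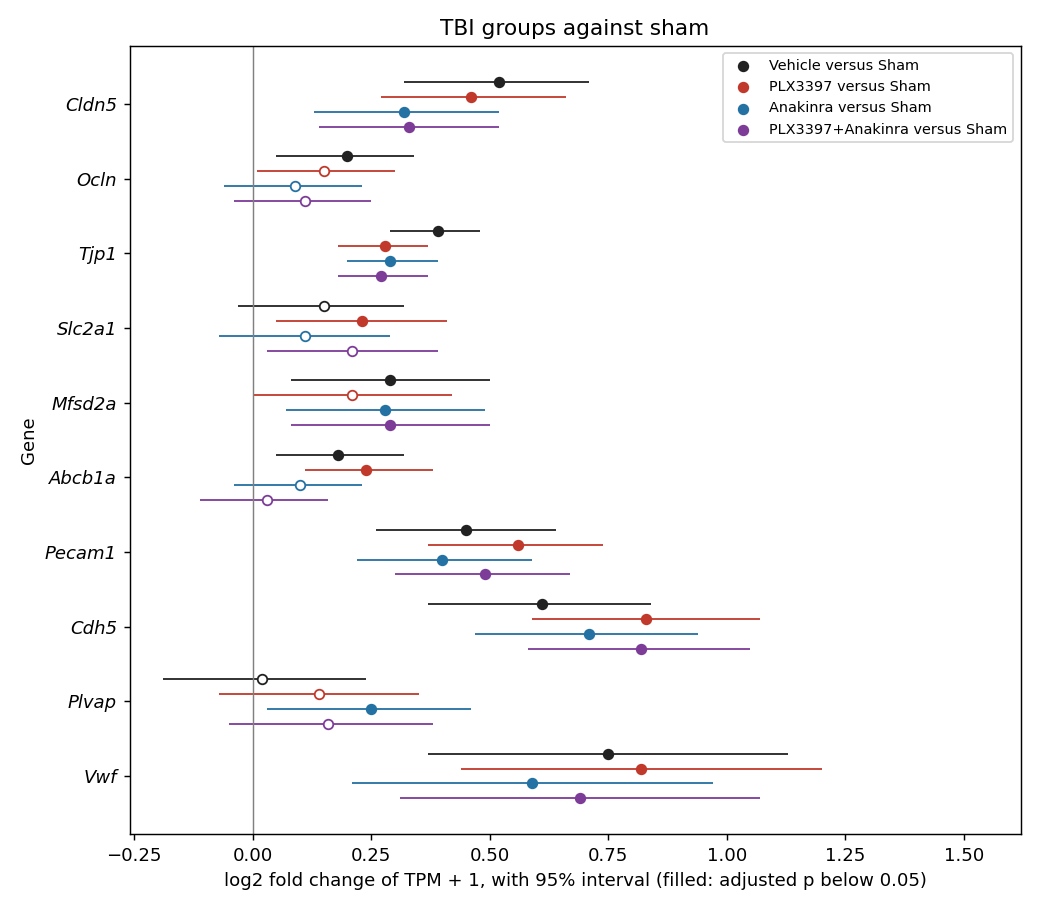
Log2 fold change of TPM + 1 (x axis) of each gene (y axis) in the 4 TBI groups against sham, with 95% intervals from limma. Filled points have an adjusted p below 0.05, and Cldn5, Tjp1, Pecam1, Cdh5 and Vwf are filled in all 4 comparisons.

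Mice given a drug after TBI were compared with the same 4 sham mice, so these comparisons are not independent of each other. With PLX3397, 7 of the 10 genes were called higher (22.7% of all genes), with Anakinra 7 (25.1%) and with PLX3397+Anakinra 6 (20.7%), and none was called lower (22.5%, 29.2% and 18.1% of all genes). Groups did not overlap for 6, 5 and 3 of the 10, against 18.7%, 21.3% and 16.9% of all genes. Medians were 0.26, 0.29 and 0.28, whereas those of all genes were -0.01, -0.04 and -0.01.

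Cdh5 had the highest fold change of the 10 in all 3 drug groups. PLX3397 mice had 19.6, 21.5, 22.7, 25.4 and 26.9 TPM, Anakinra mice 18.4, 19.1, 19.8, 23.3 and 25.8 TPM, and PLX3397+Anakinra mice 19.5, 23.1, 23.6, 23.8 and 24.3 TPM. All 15 lay above the highest sham mouse, at 0.83 ± 0.11, 0.71 ± 0.11 and 0.82 ± 0.11 (SE). Adjusted p-values were 1.92e-06, 1.12e-05 and 3.51e-06. Vwf rose by 0.82 ± 0.18, 0.59 ± 0.18 and 0.69 ± 0.18, but with PLX3397+Anakinra its values ran from 13.8 to 33 TPM and overlapped with sham. Tjp1 rose by 0.28 ± 0.05, 0.29 ± 0.05 and 0.27 ± 0.05, and Pecam1 by 0.56 ± 0.09, 0.40 ± 0.09 and 0.49 ± 0.09. Cldn5 rose by 0.46 ± 0.09, 0.32 ± 0.09 and 0.33 ± 0.09, with adjusted p-values of 0.000255, 0.00522 and 0.00698.

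The transporters, Ocln and Plvap were called in some of these comparisons only, which by itself does not show that the groups differ. Abcb1a rose with PLX3397 (0.24 ± 0.07, adjusted p = 0.00404), while its values with Anakinra (0.10 ± 0.07) and PLX3397+Anakinra (0.03 ± 0.07) did not pass. Slc2a1 passed with PLX3397 (0.23 ± 0.09, adjusted p = 0.031), and it no longer did when any of 5 mice was left out (PLX3397 mice J02, J12 and J20, sham mice J08 and J15) or without the filter on low values. With PLX3397+Anakinra, Slc2a1 passed when J03 or J17 of that group was left out (adjusted p = 0.0439 and 0.0309) and under a stricter filter that kept means from 5 TPM up (0.0499). Mfsd2a rose with Anakinra and with PLX3397+Anakinra (0.28 ± 0.10 and 0.29 ± 0.10) and was at 0.21 ± 0.10 with PLX3397, where it did not pass (adjusted p = 0.0916). Without the sham mouse J07 both calls were lost, at 0.16 with adjusted p-values of 0.158 and 0.174. Both were also lost without sham mouse J08 (0.0622 and 0.0742) and with the compared groups alone (0.0602 and 0.0634), the first without Anakinra mouse J21 (0.0769), and the second without J09 or J10 of the combined group (0.0661 and 0.0534). Plvap passed with Anakinra (0.25 ± 0.10, adjusted p = 0.0462), where the mice had 12.6, 13.9, 14.2, 14.3 and 16.3 TPM. The Plvap call was lost when any of 7 of the 9 mice was left out (Anakinra mice J05, J06, J14 and J21, sham mice J07, J15 and J16), with adjusted p-values from 0.0589 to 0.172, and also without the filter on low values (0.0776) or without the variance trend (0.0502). Ocln was called in none of the 3, and with PLX3397 it was at 0.15 (adjusted p = 0.0767), which passed without PLX3397 mouse J01 (0.0454) or without the variance trend (0.0488).

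The second question was whether the drugs altered these genes after TBI. In limma none of the 10 was called between PLX3397 and vehicle (9.89% of all genes were, in either direction), between Anakinra and vehicle (0.116%) or between PLX3397+Anakinra and vehicle (17.5%). At an unadjusted p below 0.05 the counts were 1, 3 and 3 of the 10, against 22.8%, 12.4% and 29.7% of all genes. In none of the 10 did a drug group separate from vehicle without overlap, as 6.89%, 2.57% and 10.7% of all genes did. Without J17B the counts were 1, 2 and 2 of the 10. Smaller groups separate more easily, and the shares of all genes without J17B were not counted. Medians over the 10 genes were 0.06, -0.07 and -0.03.

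Cldn5 was lower than in vehicle on average with Anakinra (74.8, 79.8, 80.1, 82.9 and 102 TPM) and with PLX3397+Anakinra (70.8, 77.4, 86.3, 92.9 and 93.3 TPM). The differences were -0.19 ± 0.09 each (adjusted p = 0.374 and 0.156) and lay within the overlap of the groups. With PLX3397 it measured 85, 87.2, 87.8, 96.2 and 105 TPM, at -0.05 ± 0.09 (95% interval -0.24 to 0.13). Tjp1 was at 61.1 to 64.4 TPM with PLX3397, 59.8 to 68.4 TPM with Anakinra and 59.4 to 65.8 TPM with PLX3397+Anakinra. These ranges lay below the vehicle mice other than J17B (68.7 to 71.3 TPM) and included the value of J17B (62.6 TPM). Differences of Tjp1 were -0.11 ± 0.04, -0.09 ± 0.04 and -0.11 ± 0.04 (adjusted p = 0.126, 0.395 and 0.0804). Without J17B, Tjp1 passed with PLX3397 (-0.14, adjusted p = 0.0366) and with PLX3397+Anakinra (-0.14, adjusted p = 0.0228), and Cldn5 passed with PLX3397+Anakinra (-0.26, adjusted p = 0.0311). Both genes had their lowest vehicle value in J17B, so these gained calls follow in part from the choice of that mouse. Calls over all genes also rose without J17B, from 1707 to 2234 with PLX3397 and from 3018 to 3446 with PLX3397+Anakinra.

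Cdh5 and Plvap leaned the other way. Cdh5 was at 0.22 ± 0.11 with PLX3397 (adjusted p = 0.22) and at 0.21 ± 0.11 with PLX3397+Anakinra (adjusted p = 0.203), and neither passed. Plvap with Anakinra was at 0.22 ± 0.10 (95% interval 0.02 to 0.43, adjusted p = 0.334). Slc2a1 was at 0.09 ± 0.08, -0.03 ± 0.08 and 0.06 ± 0.08 with PLX3397, Anakinra and both. Its largest value of all, 212 TPM, came from PLX3397+Anakinra mouse J09, whose group otherwise had 150 to 166 TPM. Intervals for Vwf were the widest, from -0.29 to 0.42 with PLX3397, from -0.52 to 0.19 with Anakinra and from -0.43 to 0.29 with both, so changes of that size could not be detected here. Abcb1a with PLX3397+Anakinra was at -0.16 ± 0.06 (95% interval -0.29 to -0.03, adjusted p = 0.0831), and it passed without mouse J03 of that group (-0.19, adjusted p = 0.0483). With PLX3397 and with Anakinra it was at 0.06 ± 0.06 and -0.09 ± 0.06. Pecam1, Mfsd2a and Ocln did not pass in any of the 3.

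**Figure D3:**
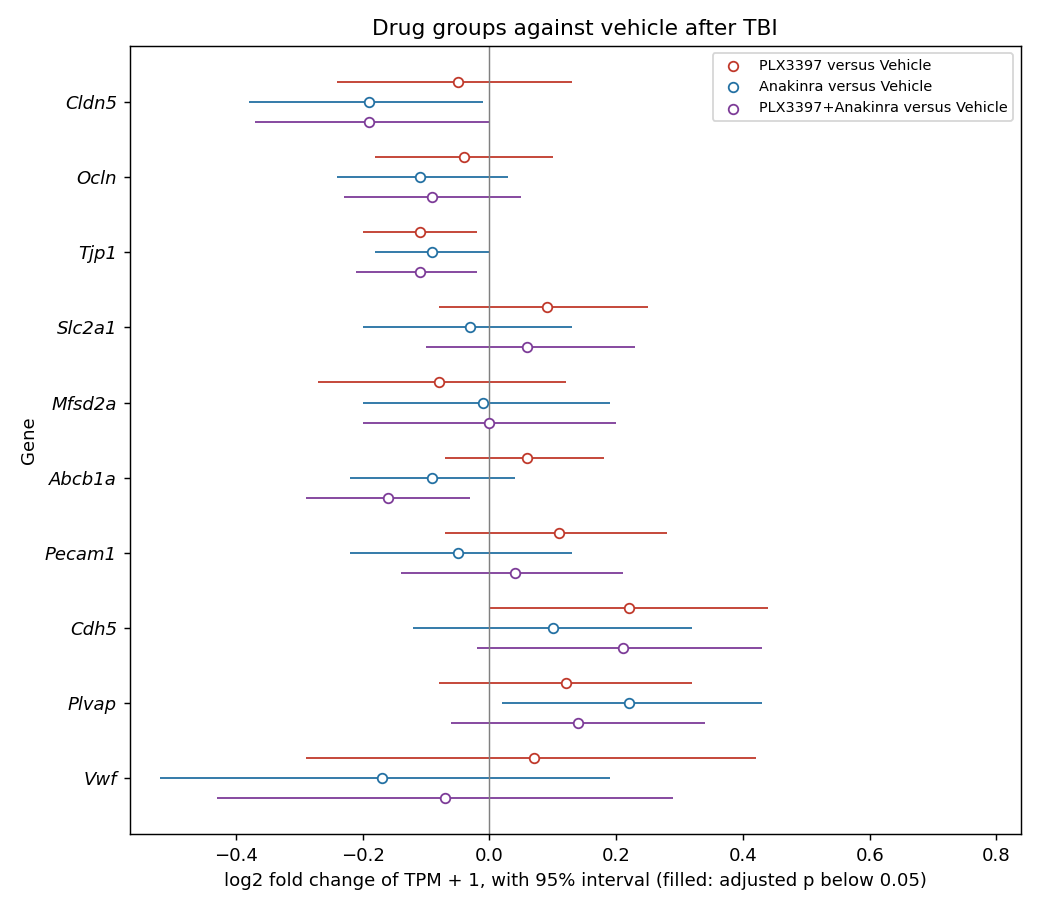
Log2 fold change of TPM + 1 (x axis) of each gene (y axis) in the 3 drug groups against vehicle, with 95% intervals from limma. All points are open because no adjusted p is below 0.05, and Cdh5 lies at 0.22 with PLX3397 and 0.21 with PLX3397+Anakinra.

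The combination was also set against each drug alone. In limma none of the 10 was called against PLX3397 (0.151% of all genes were) or against Anakinra (12.8%). At an unadjusted p below 0.05 there was 1 of the 10 against PLX3397 (6.71% of all genes) and 0 against Anakinra (27.9%). The 1 was Abcb1a, with 26.6, 26.9, 28.1, 29.4 and 30.9 TPM with PLX3397+Anakinra and 29.3, 31.7, 34.6, 34.6 and 35.3 TPM with PLX3397. Ranges touched between 29.3 and 30.9 TPM, and the difference was -0.21 ± 0.06 (SE, 95% interval -0.34 to -0.09, adjusted p = 0.237). Abcb1a also had the smallest adjusted p of the 10 in the F-test over the 4 TBI groups (0.0612), in which none of the 10 passed (15.7% of all genes did). Over all 5 groups, 6 of the 10 passed the F-test (Cldn5, Tjp1, Abcb1a, Pecam1, Cdh5 and Vwf), against 51.9% of all genes. The interaction of both drugs (the effect of Anakinra with PLX3397 minus its effect without) was called for 0 of the 10 and for 0 of all genes in limma, where 0 of the 10 and 8.08% of all genes had an unadjusted p below 0.05. Plvap (-0.20 ± 0.14) and Abcb1a (-0.13 ± 0.09) were its lowest values and Tjp1 (0.09 ± 0.06) the highest.

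The rise over sham was set against that of the endothelium in general. A list of 41 further endothelial genes, chosen with results of these data known, had 23 called higher and 2 lower between vehicle and sham (median 0.29), and its mean log2(TPM + 1) was 3.50 ± 0.01 in sham, 3.87 ± 0.10 in vehicle, 3.85 ± 0.05 with PLX3397, 3.85 ± 0.06 with Anakinra and 3.77 ± 0.04 with PLX3397+Anakinra (SD). Each of the 10 genes was then expressed as its difference from that list mean in the same library, a step added after the values had been seen. Cdh5 stood 0.26 ± 0.15 above the list in sham and 0.74 ± 0.14, 0.62 ± 0.14 and 0.80 ± 0.09 above it in the 3 drug groups (SD), without overlap in each case. In vehicle it stood 0.50 ± 0.16 above the list. Abcb1a stood 1.35 ± 0.12 above the list in sham, and 1.17 ± 0.06 in vehicle, 1.10 ± 0.08 with Anakinra and 1.10 ± 0.09 with PLX3397+Anakinra, again without overlap. With PLX3397 it stood at 1.24 ± 0.11 and overlapped with sham. Ocln with PLX3397 (-0.86 ± 0.04, against -0.66 ± 0.07 in sham) and Slc2a1 with Anakinra (3.45 ± 0.06, against 3.69 ± 0.08) were also lower relative to the list than in sham without overlap. Plvap went from 0.18 ± 0.14 in sham to -0.16 ± 0.19 in vehicle, and Tjp1 stayed near 2.23 ± 0.08 in sham and 2.25 ± 0.05 in vehicle.

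None of the 70 exact two-sided permutation tests of these relative values passed after adjustment, the smallest adjusted p being 0.123, with 0.0159 as the smallest p that 5 against 4 mice can give. Of the 41 genes, 6 fell and 2 rose with PLX3397 against vehicle (9.89% of all genes were called in either direction), and 7 fell and none rose with PLX3397+Anakinra, a share near the 17.5% of all genes. The rises were Clec14a (0.40, adjusted p = 0.0192) and Egfl7 (0.27, adjusted p = 0.031). Fli1, Mfng, Tal1, Lmo2, Ecscr and S1pr1 fell in both, by 0.67, 0.67, 0.51, 0.44, 0.56 and 0.13 with PLX3397, and Ets1 fell in addition with both drugs (by 0.29). Fli1, Tal1 and Lmo2 are factors of blood cells as well as endothelium. All 13 markers of microglia and macrophages fell in the same 2 comparisons, with medians of -1.23 and -1.46, and their part in the list mean was not tested.

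Further genes of the junctions followed the 10 in part. As background for this and the lists below, 26.6% of all genes were called higher and 27.7% lower in vehicle than in sham. Against vehicle, 9.89% were called in either direction with PLX3397, 0.116% with Anakinra and 17.5% with PLX3397+Anakinra. Of 21 other junction genes tested, 8 were higher and 2 lower in vehicle than in sham (median 0.15). The adhesion molecules Jam2 and Jam3 rose by 0.61 and 0.35, and the catenin Ctnna1, which anchors cadherins, by 0.56. Ctnnb1 and Ctnnd1, which bind the tail of VE-cadherin, rose by 0.14 and 0.15. Magi1 (-0.32) and Ildr2 (-0.23) fell. F11r (JAM-A), made by endothelium and by leukocytes and platelets, had the largest change of the list (1.21, from 11.3 to 27.4 TPM). F11r was also the only gene of the list called in a drug comparison with vehicle, and it fell by 0.82 with PLX3397 and by 0.88 with PLX3397+Anakinra. All 13 markers of microglia and macrophages fell in the same comparisons, and the part of these cells in the F11r value was not tested.

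Of 24 other genes listed for barrier transport, 14 were higher and 5 lower in vehicle (median 0.25). Not all of them are transporters, as the list also holds Spock2 and receptors such as Insr, Ager and Lrp8. The efflux pump Abcg2 rose by 0.34, the lactate transporter Slc16a1 by 0.82, the glutamine transporter Slc38a3 by 0.85 and the thyroid hormone transporter Slco1c1 by 0.26. The transferrin receptor Tfrc fell by 0.69, and Slc39a10 and Spock2 by 0.46 each. Slc7a5 (-0.02) and Slco1a4 (-0.00) did not pass. Slco2b1 had the largest rise (1.37) and fell by 1.03 with PLX3397 and by 1.11 with PLX3397+Anakinra, and Abcb1b, Slc40a1 and Slc16a1 were also among the 4 genes of the list lower with PLX3397+Anakinra (-0.47, -0.46 and -0.33). With PLX3397 Abcb1b was the other of 2 lower (-0.44), and none of the list was called higher with either. All 13 markers of microglia and macrophages rose in vehicle (median 2.73). They fell with PLX3397 and with PLX3397+Anakinra (medians -1.23 and -1.46). The part of these cells in the values of Slco2b1 and the other genes of this list was not tested.

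Most genes of a list for vesicles and fenestrae, which also holds Igfbp3 and VEGF co-receptors, rose although Plvap did not pass. Of 11 tested, 8 were higher in vehicle than in sham and none lower (median 0.54). Cav1, the main coat protein of caveolae, rose by 1.18 from 12.7 to 30.2 TPM, and Cav2 by 0.47. The cavin gene Ptrf rose by 0.68 and Ehd2, which sits at the neck of caveolae, by 0.96. Sdpr, another cavin, was at -0.12 and rose with PLX3397+Anakinra against vehicle (0.27), the only called rise of this list against vehicle. The VEGF co-receptor genes Nrp1 and Nrp2 fell with PLX3397+Anakinra (-0.48 and -0.30, adjusted p = 2.02e-05 and 0.0149), and Nrp1 also with PLX3397 (-0.27, adjusted p = 0.013). Whether Plvap differed from these genes was not tested. Markers of fibroblasts and of microglia and macrophages also rose in vehicle (medians 0.54 and 2.73), and the microglial ones fell with PLX3397 (-1.23). The part of cells other than endothelium in the values of this list was not tested.

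Genes of leukocyte adhesion and endothelial activation were followed as well. Of 15 tested, 11 were higher and 1 lower in vehicle than in sham (median 1.07). Icam1, a ligand of leukocyte integrins, rose by 2.22 and Vcam1 by 1.07, and Selp, which is stored in the same granules as von Willebrand factor, by 0.78 from 0.0259 to 0.783 TPM. Lcn2 (5.09), Cxcl10 (4.28) and Ch25h (3.71) rose most. Icam1 fell by 0.45 with PLX3397 and by 0.62 with PLX3397+Anakinra against vehicle, and Ch25h by 1.31 and 1.20, whereas Vcam1 (-0.13 and -0.14) did not pass. Lcn2, Ccl2 and Cxcl10 also fell with PLX3397+Anakinra (-1.52, -0.83 and -0.53). Ptgs2, the 1 gene lower in vehicle than in sham (-0.53), was the only called rise of the list against vehicle, at 0.39 with PLX3397 and 0.43 with PLX3397+Anakinra (adjusted p = 0.0316 and 0.0107). Cells other than endothelium make most of these molecules too.

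Among 18 coagulation and granule genes chosen as partners of Vwf, 13 were higher in vehicle and none lower (median 0.65). The endothelial protein C receptor gene Procr rose by 1.26, Tfpi by 0.99 and thrombomodulin (Thbd) by 0.40. Angpt2, stored with von Willebrand factor, rose by 0.80. F8, whose protein circulates bound to von Willebrand factor, was at 1.03 TPM in sham and 1.02 TPM in vehicle. None of the 18 was called between Anakinra and vehicle, and Plau was the 1 gene lower with PLX3397 (-0.67). With PLX3397+Anakinra 4 were lower, namely Plau (-0.89), the granule genes Cd63 (-0.55) and Rab27a (-0.35), and Fgl2 (-0.42), with adjusted p-values of 0.0011, 0.00142, 0.0112 and 0.035. None was called higher with either.

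Wnt signals from glia and neurons induce and keep barrier genes such as Cldn5, Slc2a1 and Mfsd2a. Of 25 genes of this pathway and of barrier induction, 12 were higher and 1 lower in vehicle than in sham (median 0.18). The ligands Ndp, Wnt7a and Wnt7b rose by 0.66, 0.49 and 0.30, and the receptor parts Tspan12, Lrp5, Fzd4 and Adgra2 by 0.65, 0.62, 0.30 and 0.29. Among target genes Apcdd1 rose by 0.63, while Axin2 (-0.10), Lef1 (-0.23) and Nkd1 (0.11) did not pass. Gli1 of the hedgehog pathway fell by 0.53. Against vehicle Wnt7a was lower with PLX3397 (-0.21), and with PLX3397+Anakinra Wnt7b was higher (0.15) and Apcdd1 lower (-0.33). Of 24 genes of angiogenesis 12 were higher and 1 lower (median 0.32), with Col4a1 of the vessel basement membrane at 1.10 and the receptor Aplnr at 1.91, and Vegfa lower at -0.28. Against vehicle Cxcr4, which leukocytes also express, was lower with PLX3397 (-0.54) and with PLX3397+Anakinra (-1.06), Mcam was higher with PLX3397 (0.27) and Vegfa with PLX3397+Anakinra (0.25).

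**Figure D4:**
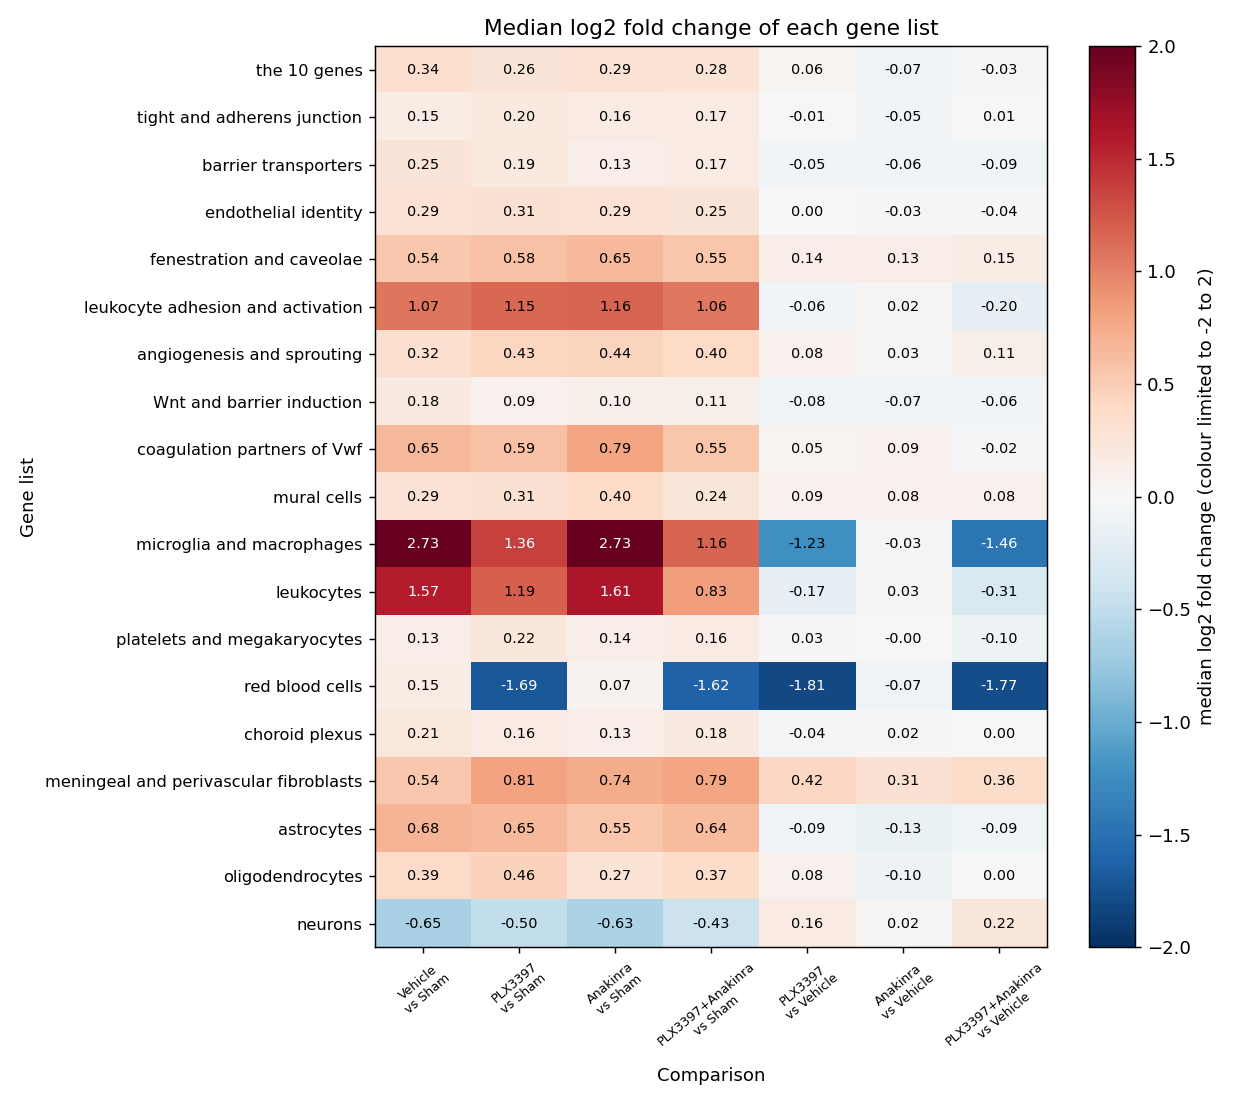
Median log2 fold change of TPM + 1 of each gene list (rows) in 7 comparisons (columns), printed in each cell, with colour limited to -2 and 2. The 10 genes lie between 0.26 and 0.34 against sham and between -0.07 and 0.06 against vehicle, next to -1.23 and -1.46 for microglia and macrophages with PLX3397 and with PLX3397+Anakinra.

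Other vessel and blood cells were measured alongside. Of 17 mural cell genes 8 were higher and 1 lower in vehicle (median 0.29), and the pericyte receptor Pdgfrb rose by 0.42. Against vehicle 4 of the 17 were higher and 1 lower with PLX3397 (9.89% of all genes were called in either direction). With PLX3397+Anakinra 2 were higher and 1 lower, a share near the 17.5% of all genes. All 5 red blood cell genes were lower with PLX3397 and with PLX3397+Anakinra than with vehicle (medians -1.81 and -1.77), and none was called between vehicle and sham. Their summed level was 1507 to 4406 TPM in vehicle, 606 to 1072 TPM with PLX3397 and 725 to 951 TPM with PLX3397+Anakinra. Fibroblast markers summed to 138 to 159 TPM in sham, 202 to 845 TPM in vehicle and 598 to 1297 TPM with PLX3397. With Anakinra the sums were 916 to 1681 TPM, and with PLX3397+Anakinra 812 to 1371 TPM. Against vehicle, 5 of 12 were called higher and 1 lower with PLX3397, and as many with PLX3397+Anakinra. None was called between Anakinra and vehicle. The part of these cells in the values of the 10 genes was not tested.

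**Figure D5:**
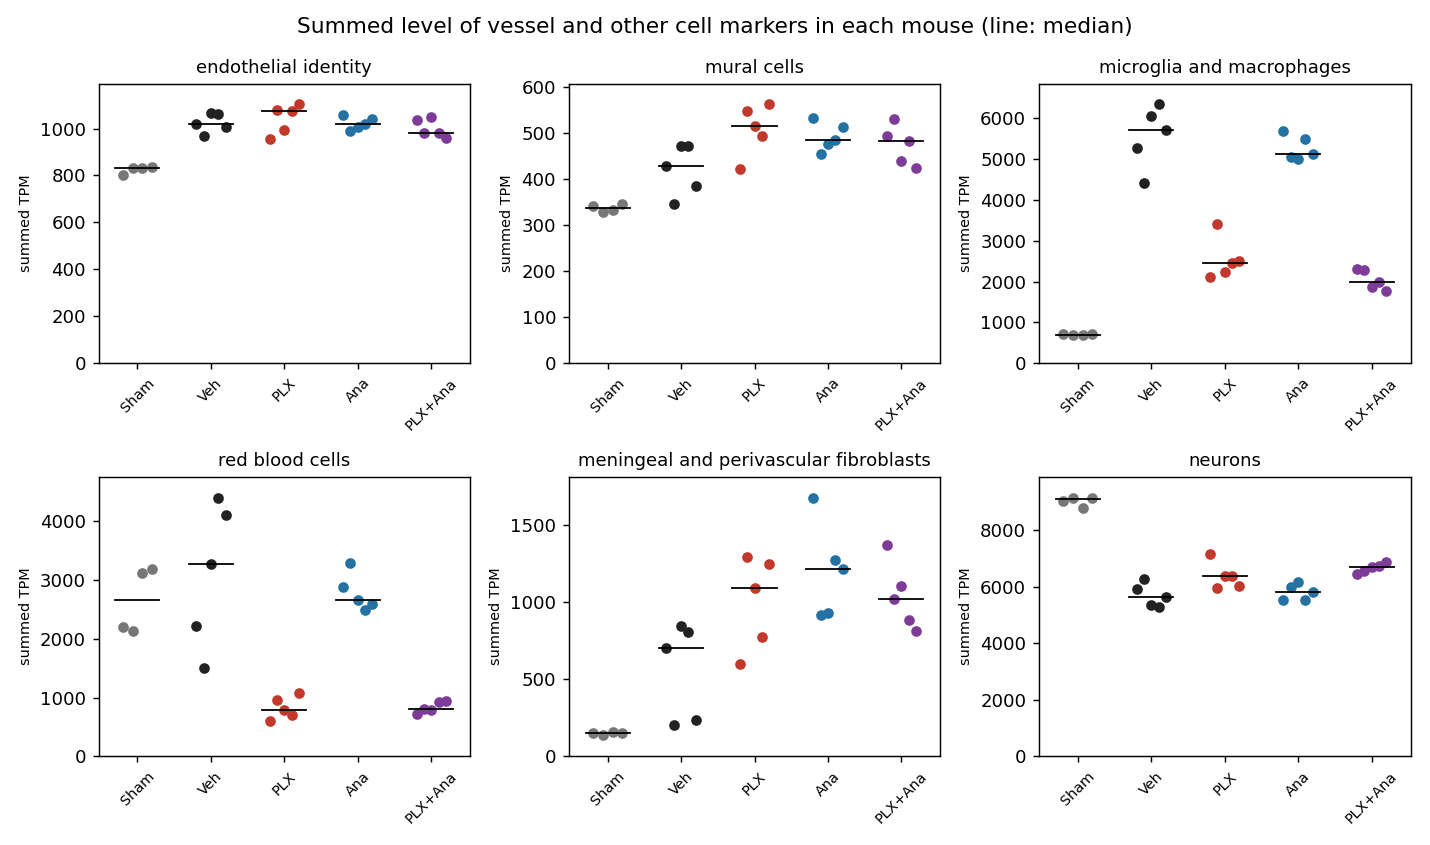
Summed TPM (y axis, from 0) of 6 marker lists in each mouse of the 5 groups (x axis), with lines at the group medians. Endothelial sums lie at 804 to 835 TPM in sham and at 953 to 1103 TPM in the groups with TBI, and red blood cell sums with PLX3397, alone or combined, are at or below 1072 TPM.

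Mice of a group also varied together, which was described by correlating log2(TPM + 1) over the 24 libraries after each group's mean was subtracted. The points share library and tissue composition, and the values are descriptions. Of the 45 pairs among the 10 genes, Cldn5 and Cdh5 had the highest r (0.72), followed by Slc2a1 with Vwf (0.67) and with Pecam1 (0.59). Ocln had the lowest median r with the others (0.09, from -0.12 to 0.41). The genes named next were picked for each of the 10 as the 3 with the highest r. Such a choice among many genes gives high r by itself, and no baseline for it was computed. Over the other 17257 genes, those most like Cldn5 were Gnai2 (0.88), Pik3r5 (0.87) and Pfn1 (0.86), and those most like Cdh5 were Myo1c (0.88), Cnn2 (0.88) and Esyt1 (0.87). Vwf went with Grrp1, Podxl and Tgm2 (0.83 each) and Pecam1 with AB124611 (0.86), Angptl4 (0.84) and Myof (0.81). For Mfsd2a these were Zfp94 (0.79), Sdc4 (0.77) and Gjb6 (0.76), and for Slc2a1 Rrp1b (0.82), Tmem252 (0.81) and Tns2 (0.80). Plvap was most like Capzb (0.79), Pbxip1 (0.78) and Thbs4 (0.77), Abcb1a like Lgals8 (0.79), Fam26e (0.77) and Nfe2l2 (0.77), Tjp1 like Plekhg1 (0.78), Ganab (0.75) and Mtus1 (0.75), and Ocln like Snx1 (0.74), Paics (0.72) and Tnfsf13os (0.72).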

How the data were processed

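Total RNA of lesional and perilesional tissue was sequenced as polyA-selected, paired-end libraries. The authors mapped the reads to mm10 (GRCm38 per the labels) in CLC Genomics Workbench and deposited TPM for 36333 genes. Each library sums to 1000000 TPM, no counts are given and the depth is unknown, so precision rests on the spread between mice. A rounded copy of the table served as an alternative. A filtered table, which also holds the authors' own test results, was not used. Gene coordinates follow RefSeq GRCm38.p6.

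Groups were taken from the treatment labels. For the 17267 genes whose mean reached 0.5 TPM, log2(TPM + 1) was fitted in limma 3.58.1 (R 4.3.3), with 1 mean per group, all 24 libraries and a variance trend, and p-values were adjusted by Benjamini-Hochberg over all genes tested. Fold changes are on this scale and understate those of low genes. On simulated data the fit recovered 73% of genes changed 1.25-fold in Vehicle versus Sham. There only a small share of genes was changed, all with a mean above 5 TPM, whereas 54.3% of genes were called in the real comparison. Recovery in the drug comparisons was not simulated. The genes and lists were chosen with earlier results of these data known. Genes are named when they are among the 10, lead a list or bind or resemble one of the 10, and some list genes outside that rule were named after their values were seen. For each of the 10, the 3 most correlated genes are given. Alternatives were a pseudocount of 0.1, other filters, median-ratio rescaling, fits without trend or with robust variance, the compared groups alone, a ratio and difference rule, leaving out each mouse, and a block for animal number.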

Additional observations from a re-analysis of the deposited data

Results flagged for a closer look

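In 3 of the 50 sets of values checked (10 genes in 5 groups) a mouse stood far from the rest of its group, where chance gives about 1 in 20. Slc2a1 was 212 TPM in PLX3397+Anakinra mouse J09, against 150 to 166 TPM in the other mice of that group. Mfsd2a was 39.9 TPM in Anakinra mouse J21, against 30.3 to 31.6 TPM in the others, and without this mouse its call against sham was lost (0.21, adjusted p = 0.0769 in limma). Cdh5 was 19.5 TPM in PLX3397+Anakinra mouse J17, against 23.1 to 24.3 TPM in the others.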

How the results depend on the processing

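The ratio and difference rule was not part of the tally that follows. Over the other alternatives, 1737 of 1860 values of the 10 genes kept their direction and their side of the threshold. Of the rest, 32 lost and 13 gained a call, 78 uncalled values changed sign, and none that was called reversed. Against sham, the counts of 8, 7, 7 and 6 genes (vehicle, PLX3397, Anakinra, PLX3397+Anakinra) became 0, 0, 0 and 0 under an unadjusted p below 0.05 with a ratio of means above 2 and a difference above 4 TPM, since no ratio reached 2. Rescaling by the median ratio raised PLX3397+Anakinra against vehicle from 0 to 1 (Tjp1, -0.12, adjusted p = 0.0477). Leaving out 1 mouse gave 5 to 9 genes for vehicle against sham, 0 to 1 for PLX3397 against vehicle, 0 to 2 for PLX3397+Anakinra against vehicle and 0 to 1 in the F-test over the TBI groups. Genes without overlap then numbered 3 to 6 for PLX3397+Anakinra against sham, and against vehicle 0 to 1 for PLX3397, 0 to 2 for Anakinra and 0 to 2 for PLX3397+Anakinra, and 0 to 1 for PLX3397+Anakinra against PLX3397. The shares of all genes without overlap were not counted with a mouse left out.

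Vehicle and PLX3397 share the animal numbers 01, 19 and 20 apart from the letter B. Deviations of these same-numbered mice correlated at 0.173, -0.134 and -0.0656. So few values cannot decide whether the numbers pair the mice, and what the numbers stand for is not known. Vehicle mouse J17B and PLX3397+Anakinra mouse J17 also share a number, and their deviations were not compared. With the number as a replicate block in PLX3397 against vehicle, 0 of the 10 genes were called, as without it, and 703 of all genes in place of 1707. With the compared groups alone, 998 were called. Anakinra against vehicle gave 20 genes, 2 to 31 under the other alternatives and 1 to 66 without 1 mouse. PLX3397+Anakinra against PLX3397 gave 26, then 9 to 26 and 11 to 77. The interaction gave 0, and up to 9 without 1 mouse. The ratio and difference rule gave 909, 632, 914 and 500 genes against sham (9378, 7801, 9392 and 6702 by adjusted p), 176 and 285 for PLX3397 and PLX3397+Anakinra against vehicle (1707 and 3018), and 271 for PLX3397+Anakinra against Anakinra (2206).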
